A study of Mus musculus with 10 samples.

Results

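The kinetochore and the spindle assembly checkpoint were followed through 45 genes, chosen by name from the known parts of the mouse kinetochore and matched by Ensembl identifier among the 48795 genes counted. All 45 were found, all 45 passed the filter on low counts, and the lowest count of any of them in any library was 12. RNA-seq had been carried out on neural stem and progenitor cells cultured from the subependymal zone of mice aged 10 weeks. Proliferating cells (PRO) were taken from 3 DIV neurospheres, floating aggregates kept with EGF at 20 ng/ml and FGF at 10 ng/ml, where DIV stands for days in vitro. Differentiating cells (DIFF) were attached to Matrigel for 2 days with FGF and collected at 2 + 1 DIV, 24 h after the mitogens had been replaced by 2% fetal bovine serum. WT cultures gave 3 libraries of each stage, and cultures from the Cdkn1b mutant line, labelled p27KO and kept on a C57BL/6J background, gave 2 libraries of each. Attachment, loss of mitogens, serum and time in culture changed together between the stages, so that their parts cannot be told apart.

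The kinetochore is the protein assembly built on centromeric chromatin that holds spindle microtubules during mitosis. Its inner layer, the constitutive centromere-associated network (CCAN), sits on nucleosomes that hold the histone variant Cenpa, and its outer layer, the KMN network of Knl1, the Mis12 complex and the Ndc80 complex, binds microtubules. Unattached kinetochores recruit the checkpoint proteins, which hold back anaphase, and the chromosomal passenger complex corrects wrong attachments. Cdkn1b encodes p27, an inhibitor of cyclin-dependent kinases that is known for holding cells out of the cycle.

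The libraries held 19190068 to 25291674 counts each, and levels are given in CPM, the count scaled to the total of its library. Counts of Cdkn1b did not mark the mutant as empty. Cdkn1b read 102.7, 105.0 and 112.5 CPM in WT PRO, 206.5, 205.2 and 208.6 CPM in WT DIFF, 113.8 and 90.7 CPM in the PRO libraries labelled p27KO and 140.2 and 137.2 CPM in their DIFF libraries. The sources used here do not say which part of Cdkn1b the mutant lacks, and the free-text description of these 4 samples reads WT while their titles and genotype fields read p27KO. Genotype also coincided with sex, since Xist read 2258 to 3595 CPM in the libraries labelled p27KO and 1.16 to 2.57 CPM in WT, so that these cannot be told apart. Of the lists of markers, that of neural stem and progenitor cells read 7021 to 8804 CPM in sum over all 10 libraries. Its members moved in opposite directions (in WT, Nes from a mean of 1732 to 194.9 CPM and Slc1a3 from 767.7 to 2386 CPM). The summed markers of microglia stayed at or below 0.456 CPM. Of the endothelial genes, Cldn5 and Cdh5 were at 0 in every library and Pecam1 stayed at or below 0.443 CPM. Kdr was higher in DIFF, from a mean of 1.91 to 7.62 CPM in WT and from 1.43 to 7.66 CPM in p27KO.

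In WT cells the whole set fell when the mitogens were withdrawn. All 45 members were lower in DIFF than in PRO past the threshold (edgeR adjusted p under 0.05), where 33.9% of the 12859 genes tested were called lower and 67.4% in either direction. Their median log2 fold change was -2.88, against -0.0019 over all genes tested, and ranged from -3.76 for Birc5 to -0.33 for Cenpc1. In the libraries labelled p27KO 42 of 45 members fell, where 30.2% of genes were called lower and 57.7% in either direction, with a median of -1.62 against -0.029 over all genes. Summed over the 45 members, the level was 2874 ± 134 CPM (SD, n = 3) in WT PRO, 852.5 ± 83.6 CPM (SD, n = 3) in WT DIFF, 2950 ± 279.9 CPM (SD, n = 2) in p27KO PRO and 1417 ± 21.1 CPM (SD, n = 2) in p27KO DIFF. These sums overlapped between genotypes in PRO and were apart in DIFF.

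**Figure D1:**
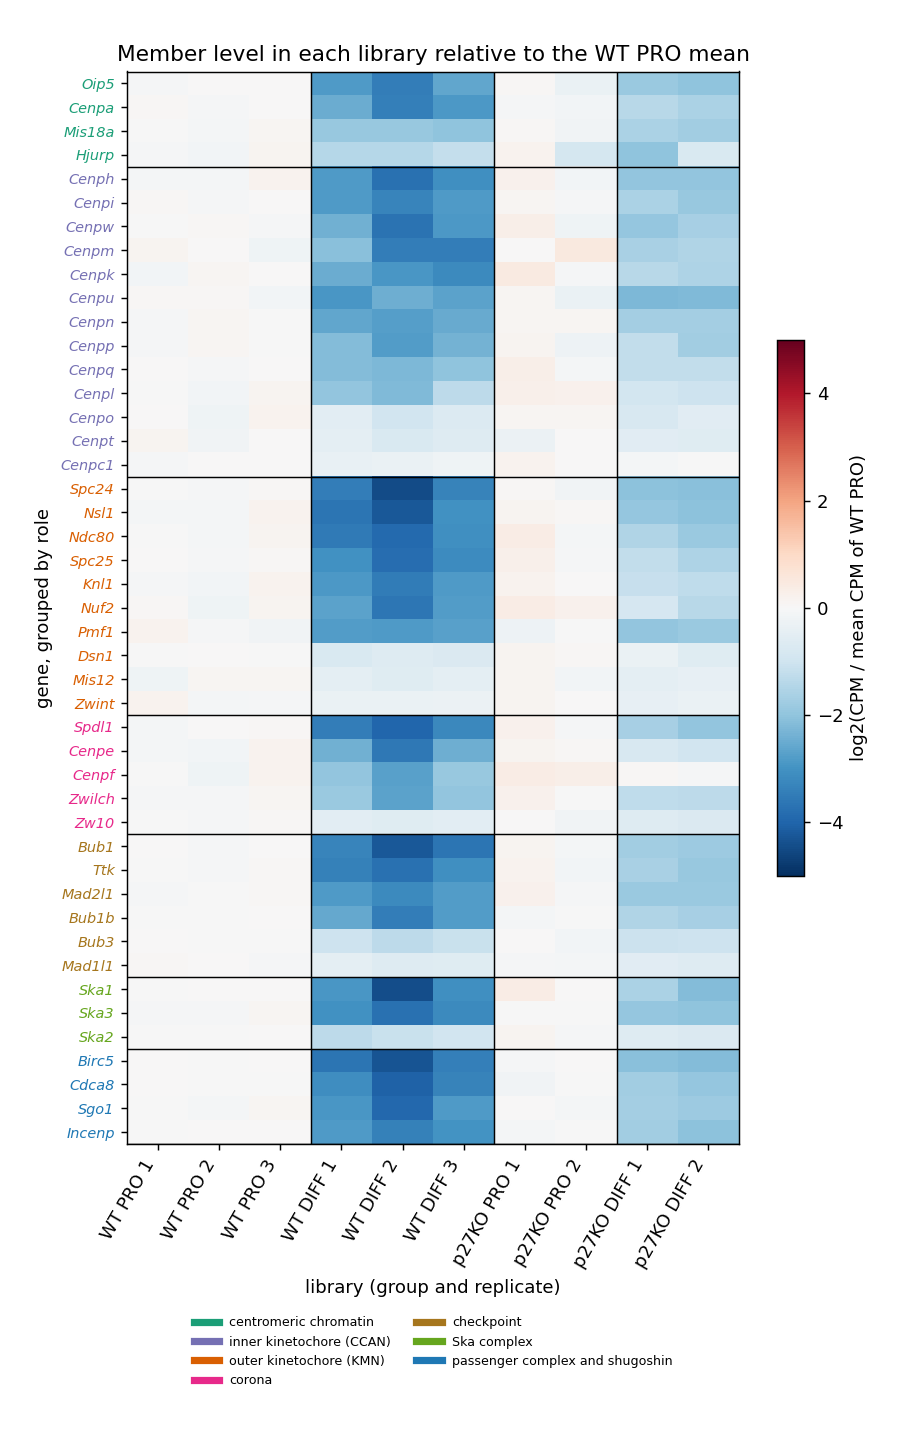
Each row is a member, grouped by role and coloured as in the key, each column is a library, and the colour gives log2 of the CPM over the mean CPM of the WT PRO libraries. The DIFF libraries are blue for most members, deepest in the second WT DIFF library, and paler in the p27KO DIFF libraries, while rows such as Zwint, Mis12 and Cenpc1 stay near white throughout.

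No WT DIFF library reached the lowest WT PRO library for any of the 45 members, where 35.6% of genes were lower without overlap. In p27KO this held for 44 of 45 members, where 39.8% of genes were lower without overlap, and Hjurp was the exception. The list of proliferation genes (Mki67, Top2a, Pcna and Mcm2) moved the same way, from 2018 to 2195 CPM in WT PRO to 169 to 267 CPM in WT DIFF, and from 2156 to 2378 CPM in p27KO PRO to 636 to 719 CPM in p27KO DIFF. In bulk RNA, fewer dividing cells and less RNA per dividing cell cannot be told apart. The summed astrocyte markers, 219 to 364 CPM in PRO, were 1068 to 1474 CPM in DIFF of both genotypes. Aldh1l1 and S100b among them were not called in either genotype. S100b was fitted lower in DIFF, by -0.64 in WT and -1.155 in p27KO on the log2 scale. The summed markers of ependyma went from 13.9 to 20.1 CPM in PRO to 84.4 to 103 CPM in DIFF, and those of oligodendrocytes from 8.90 to 29.6 CPM to 56.1 to 131 CPM. The part of these lists in the change was not tested.

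The promoters of the members at both ends of the change are shown because the fall differed so much among genes of the same structure. They are the 3 members with the largest and the 3 with the smallest WT change among the 40 members with a window in the RefSeq promoter table (GRCm38.p6), each window running from 250 bases before the annotated start to 50 bases after it. Capitals mark the motifs searched on both strands, which were the CHR-type elements TTTGAA and TTTAAA, the CCAAT box, and the E2F-type elements TTCCCGC and TTTGGCG. A motif on the minus strand appears as its reverse complement, as ATTGG for CCAAT, and no motif overlapped another in these windows. The large changes were those of Birc5 (chr11:117848987-117849286, plus strand), Bub1 (chr2:127831810-127832109, minus strand) and Spdl1 (chr11:34833592-34833891, minus strand).
Birc5: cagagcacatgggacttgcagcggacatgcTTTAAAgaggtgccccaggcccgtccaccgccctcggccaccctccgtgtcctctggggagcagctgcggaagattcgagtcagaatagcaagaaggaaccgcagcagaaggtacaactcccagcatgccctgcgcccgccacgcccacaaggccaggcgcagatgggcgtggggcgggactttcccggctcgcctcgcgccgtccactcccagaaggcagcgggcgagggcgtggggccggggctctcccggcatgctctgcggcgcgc
Bub1: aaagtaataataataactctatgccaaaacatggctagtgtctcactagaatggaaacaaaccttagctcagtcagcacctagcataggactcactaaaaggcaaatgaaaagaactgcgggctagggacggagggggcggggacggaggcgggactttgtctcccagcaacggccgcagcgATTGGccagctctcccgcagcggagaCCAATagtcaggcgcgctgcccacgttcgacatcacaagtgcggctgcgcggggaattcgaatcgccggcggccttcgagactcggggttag
Spdl1: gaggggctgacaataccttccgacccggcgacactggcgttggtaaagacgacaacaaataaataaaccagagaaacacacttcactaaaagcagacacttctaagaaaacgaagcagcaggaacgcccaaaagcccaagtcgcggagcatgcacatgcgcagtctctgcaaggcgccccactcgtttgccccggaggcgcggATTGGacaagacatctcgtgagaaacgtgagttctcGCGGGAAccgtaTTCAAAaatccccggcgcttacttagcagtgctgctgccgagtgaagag
The small changes were those of Cenpc1 (chr5:86065534-86065833, minus strand), Zwint (chr10:72654596-72654895, plus strand) and Mis12 (chr11:71019361-71019660, plus strand).
Cenpc1: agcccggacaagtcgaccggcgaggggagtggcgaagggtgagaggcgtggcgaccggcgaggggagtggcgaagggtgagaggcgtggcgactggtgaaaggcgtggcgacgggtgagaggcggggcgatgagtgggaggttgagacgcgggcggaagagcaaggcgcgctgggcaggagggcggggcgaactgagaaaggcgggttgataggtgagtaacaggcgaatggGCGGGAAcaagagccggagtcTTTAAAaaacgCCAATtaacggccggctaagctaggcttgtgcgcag
Zwint: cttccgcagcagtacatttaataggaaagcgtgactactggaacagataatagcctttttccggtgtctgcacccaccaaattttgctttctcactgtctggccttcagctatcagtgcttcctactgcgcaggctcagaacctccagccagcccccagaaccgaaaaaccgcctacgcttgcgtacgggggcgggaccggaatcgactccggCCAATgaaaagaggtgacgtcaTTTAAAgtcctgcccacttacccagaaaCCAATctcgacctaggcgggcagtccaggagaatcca
Mis12: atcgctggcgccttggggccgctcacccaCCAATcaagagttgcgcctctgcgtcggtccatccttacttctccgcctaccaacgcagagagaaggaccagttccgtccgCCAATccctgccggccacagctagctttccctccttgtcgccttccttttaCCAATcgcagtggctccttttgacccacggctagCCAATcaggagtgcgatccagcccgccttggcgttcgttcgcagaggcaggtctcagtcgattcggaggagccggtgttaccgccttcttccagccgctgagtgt
Both kinds of promoter held marked motifs, with 6 matches in the first group of windows and 10 in the second. Over the 40 members with a window, CCAAT was present in 67.5%, against 41.1% of the 27025 genes in the table. TTTGAA was present in 45.0% against 20.2%, TTTAAA in 22.5% against 14.9%, TTCCCGC in 25.0% against 5.29% and TTTGGCG in 2.5% against 1.77%. These shares are descriptions, and a match is not a bound site.

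Genes of centromeric chromatin deposit and carry Cenpa, the histone H3 variant that marks the centromere. All 4 fell in WT cells and 3 fell in p27KO, with Hjurp not past the threshold there. Cenpa (chr5:30666777-30674830) read 81.2, 76.3 and 79.03 CPM in WT PRO, 14.1, 7.42 and 10.9 CPM in WT DIFF, 76.5 and 72.3 CPM in p27KO PRO and 30.1 and 26.6 CPM in p27KO DIFF. The groups did not overlap in DIFF, where p27KO was higher by a log2 fold change of 1.42 ± 0.19 (SE, edgeR adjusted p = 0.00429). Oip5, a subunit of the Mis18 complex that licenses Cenpa deposition, had the largest WT change of the group at -2.94 ± 0.20. Its levels were 14.2, 14.8 and 14.99 CPM in WT PRO, 2.04, 1.33 and 2.41 CPM in WT DIFF, 15.4 and 11.8 CPM in p27KO PRO and 4.04 and 3.69 CPM in p27KO DIFF. Both p27KO DIFF libraries of Oip5 were above all 3 of WT DIFF, but the difference of 1.02 ± 0.22 did not pass the threshold (edgeR adjusted p = 0.0511, or 0.036 with a replicate block shared by the genotypes).

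Hjurp, the chaperone that brings Cenpa to the centromere, had the smallest WT change of these genes, at -1.35 ± 0.33. It was measured at 319, 300.2 and 364 CPM in WT PRO and 122, 122 and 143 CPM in WT DIFF. In p27KO the replicates of Hjurp disagreed, with 373 and 176 CPM in PRO and 80.2 and 191 CPM in DIFF. The p27KO change of -1.04 ± 0.40 did not pass the threshold (edgeR adjusted p = 0.0535), and it passed with DESeq2, with a filter of 1 CPM in 4 libraries, with the p27KO numbers crossed in the block, and without the second p27KO PRO or the second p27KO DIFF library. Mis18a, the partner of Oip5, had log2 fold changes of -1.95 ± 0.12 in WT and -1.62 ± 0.14 in p27KO.

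Among the 13 CCAN genes, which bridge Cenpa nucleosomes and the outer kinetochore, all 13 fell in WT and 12 fell in p27KO. Their WT median was -2.63 and their p27KO median -1.69 on the log2 scale. Cenph, of the group it forms with Cenpi, Cenpk and Cenpm, had the largest WT change of the layer at -3.18 ± 0.21. It read 15.3, 15.4 and 18.5 CPM in WT PRO, 2.29, 1.24 and 1.98 CPM in WT DIFF, 18.9 and 15.1 CPM in p27KO PRO and 4.16 and 4.14 CPM in p27KO DIFF. Its partner Cenpi (chrX:134308084-134362639) read 38.6, 36.3 and 37.7 CPM in WT PRO, 5.29, 3.85 and 5.34 CPM in WT DIFF, 40.4 and 36.3 CPM in p27KO PRO and 12.4 and 10.1 CPM in p27KO DIFF. In both genes the DIFF libraries of p27KO lay above those of WT without overlap, by 1.20 ± 0.23 for Cenph (edgeR adjusted p = 0.0250) and 1.24 ± 0.15 for Cenpi (edgeR adjusted p = 0.00216). Cenpi is the 1 member on the X chromosome, where genotype and sex coincide.

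Cenpn, which with Cenpl contacts the Cenpa nucleosome, was measured at 30.1, 33.2 and 30.4 CPM in WT PRO, 5.14, 4.64 and 5.496 CPM in WT DIFF, 33.7 and 33.4 CPM in p27KO PRO and 9.71 and 9.67 CPM in p27KO DIFF. Cenpq, of the Cenpo-Cenpp-Cenpq-Cenpu group, read 44.8, 42.1 and 44.7 CPM, 9.67, 9.32 and 10.8 CPM, 53.1 and 40.5 CPM and 18.5 and 18.5 CPM in the same order. Replicates of both genes in DIFF lay close together and the genotypes were apart, with differences of 0.94 ± 0.10 for Cenpn (edgeR adjusted p = 0.00146) and 0.91 ± 0.12 for Cenpq (edgeR adjusted p = 0.00328). Cenpk rose in the same comparison by 1.38 ± 0.23 (edgeR adjusted p = 0.0120).

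Cenpc1, which binds the Cenpa nucleosome directly and reaches out to the Mis12 complex, changed least of all 45 members. It was measured at 48.8, 50.9 and 50.9 CPM in WT PRO, 38.8, 39.3 and 42.8 CPM in WT DIFF, 57.01 and 50.7 CPM in p27KO PRO and 46.8 and 49.9 CPM in p27KO DIFF. Its WT change of -0.33 ± 0.074 passed the threshold (edgeR adjusted p = 0.00302) and its p27KO change of -0.18 ± 0.09 did not (edgeR adjusted p = 0.112). Cenpt and Cenpo also had small WT changes, of -0.63 ± 0.13 and -0.74 ± 0.14, while the other 10 CCAN genes had WT changes from -3.18 to -1.79.

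The 10 genes of the outer kinetochore all fell in both genotypes, with a WT median of -3.02 and a p27KO median of -1.46 on the log2 scale. The Ndc80 complex is a rod of 4 subunits that grips the microtubule, and all 4 of its genes fell in both genotypes. Ndc80 (chr17:71496100-71526857) read 39.5, 37.9 and 43.9 CPM in WT PRO, 3.46, 2.73 and 4.86 CPM in WT DIFF, 52.9 and 37.5 CPM in p27KO PRO and 14.2 and 11.3 CPM in p27KO DIFF. Nuf2, its partner in the globular end, read 113, 91.7 and 118 CPM, 16.8, 8.704 and 15.6 CPM, 138 and 126 CPM and 59.3 and 41.6 CPM in that order. The p27KO DIFF mean was 3.46 times the WT DIFF mean for Ndc80 and 3.68 times for Nuf2.

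Spc24 and Spc25 form the end of the rod that joins the rest of the kinetochore. Spc24 had the largest WT change of the outer layer, -3.68 ± 0.23, with levels of 18.3, 17.8 and 19.00 CPM in WT PRO, 1.68, 0.829 and 1.82 CPM in WT DIFF, 19.1 and 16.4 CPM in p27KO PRO and 4.401 and 4.36 CPM in p27KO DIFF. Spc25 (chr2:69193895-69206194) was measured at 61.7, 59.1 and 63.5 CPM in WT PRO, 7.53, 4.43 and 6.88 CPM in WT DIFF, 73.1 and 59.1 CPM in p27KO PRO and 26.3 and 21.2 CPM in p27KO DIFF. The genotypes did not overlap in DIFF for any of the 4 subunits, and all 4 rose in p27KO against WT there, by 1.80 ± 0.22 for Ndc80, 1.90 ± 0.25 for Nuf2, 1.62 ± 0.24 for Spc24 and 1.94 ± 0.19 for Spc25 (edgeR adjusted p from 7.54e-04 to 0.00722). Over all genes tested, 17% were higher in p27KO DIFF without overlap and 1.91% were called higher.

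Knl1 (chr2:119047119-119105501), the scaffold on which the checkpoint kinases dock, read 79.2, 76.2 and 94.99 CPM in WT PRO, 11.3, 7.34 and 11.8 CPM in WT DIFF, 94.5 and 85.5 CPM in p27KO PRO and 37.7 and 34.5 CPM in p27KO DIFF. It kept 12.2% of its PRO mean in WT and 40.1% in p27KO. Zwint, which binds Knl1, stood at the other end of the group, with 271, 225 and 229.5 CPM in WT PRO, 192, 192 and 198 CPM in WT DIFF, 263 and 246 CPM in p27KO PRO and 180.2 and 195 CPM in p27KO DIFF. Zwint kept 80.1% in WT and 73.6% in p27KO, and its DIFF libraries overlapped between genotypes. So the pair of Knl1 and Zwint, which bind each other, changed by -3.06 and -0.33 on the log2 scale in WT.

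In the corona, the fibrous outermost layer that captures microtubules from the side, all 5 genes fell in WT and 4 fell in p27KO. Cenpf (chr1:189640606-189688086), a large coiled-coil protein of the corona, read 249.8, 221 and 288 CPM in WT PRO and 64.5, 38.7 and 68.1 CPM in WT DIFF. In p27KO it read 326 and 314 CPM in PRO and 263 and 239.6 CPM in DIFF. Cenpf thus kept 22.6% of its PRO mean in WT and 78.6% in p27KO, where its change of -0.37 ± 0.22 did not pass the threshold (edgeR adjusted p = 0.175, or 0.0362 with the replicate block within genotype). It had the largest difference of any member between the genotypes in DIFF, 2.16 ± 0.20 (edgeR adjusted p = 7.51e-04).

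Cenpe, the kinesin motor that carries chromosomes to the spindle equator, was measured at 118, 114 and 142 CPM in WT PRO, 23.5, 10.6 and 23.2 CPM in WT DIFF, 138 and 129 CPM in p27KO PRO and 71.1 and 63.3 CPM in p27KO DIFF. It had the largest share left in p27KO after Cenpf among the members that fell by more than 1.5 on the log2 scale in WT, 50.4% against 15.3% in WT. Spdl1 (chr11:34809190-34833641), the adaptor that recruits dynein, read 19.2, 20.7 and 21.4 CPM in WT PRO, 1.88, 1.33 and 2.21 CPM in WT DIFF, 23.7 and 19.5 CPM in p27KO PRO and 6.42 and 5.26 CPM in p27KO DIFF. Zw10, which recruits dynein to the kinetochore as a subunit of the RZZ complex and also works in membrane traffic, read 30.9, 30.00 and 32.1 CPM in WT PRO, 21.5, 20.5 and 21.4 CPM in WT DIFF, 31.2 and 27.3 CPM in p27KO PRO and 20.1 and 18.7 CPM in p27KO DIFF. Cenpe and Spdl1 did not overlap between the genotypes in DIFF and rose in p27KO, by 1.84 ± 0.27 and 1.71 ± 0.19 (edgeR adjusted p = 0.00722 and 0.00172). Zw10 in DIFF was lower in both p27KO libraries than in all 3 of WT, where 20.4% of genes were lower without overlap, and the difference of -0.11 ± 0.095 did not pass the threshold (edgeR adjusted p = 0.634).

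The checkpoint genes make the signal that delays anaphase until every kinetochore is attached, and all 6 fell in both genotypes. Bub1 (chr2:127801122-127831865), a kinase that marks the centromere and docks on Knl1, read 78.4, 73.00 and 78.3 CPM in WT PRO, 7.79, 4.06 and 6.17 CPM in WT DIFF, 83.2 and 71.6 CPM in p27KO PRO and 23.1 and 21.5 CPM in p27KO DIFF. Bub1b, which encodes the BubR1 part of the anaphase inhibitor, read 121, 122 and 126 CPM, 20.97, 11.3 and 17.9 CPM, 114 and 122 CPM and 43.9 and 39.1 CPM in the same order. Ttk (chr9:83834689-83872389), the Mps1 kinase that starts the signal, read 50.4, 49.1 and 51.9 CPM, 4.89, 3.81 and 6.09 CPM, 57.4 and 45.6 CPM and 16.5 and 13.8 CPM. All 3 were higher in every p27KO DIFF library than in any WT DIFF library, as 17% of genes were. The differences were 1.92 ± 0.19 for Bub1, 1.33 ± 0.19 for Bub1b and 1.63 ± 0.17 for Ttk (edgeR adjusted p = 9.37e-04, 0.00567 and 0.00116), where 1.91% of genes were called higher.

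Mad2l1 (chr6:66535390-66547220) encodes Mad2, which is converted at the kinetochore into the inhibitor of Cdc20, and Mad1l1 encodes Mad1, the protein that holds it there. Mad2l1 was measured at 92.7, 96.5 and 101 CPM in WT PRO, 13.7, 10.7 and 14.2 CPM in WT DIFF, 112 and 92.1 CPM in p27KO PRO and 26.9 and 27.1 CPM in p27KO DIFF. Mad1l1 had the smallest WT change of the checkpoint genes, -0.59 ± 0.08, with 38.7, 37.9 and 35.6 CPM in WT PRO, 26.5, 23.7 and 24.7 CPM in WT DIFF, 36.1 and 34.8 CPM in p27KO PRO and 25.2 and 23.6 CPM in p27KO DIFF. The DIFF libraries of Mad1l1 overlapped between genotypes, and those of Mad2l1 were apart by 1.09 ± 0.12 (edgeR adjusted p = 0.00146). Bub3, the binding partner of both Bub1 and Bub1b, changed by -1.17 ± 0.076 in WT and -1.04 ± 0.092 in p27KO.

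The Ska complex helps kinetochores stay on shrinking microtubule ends, and its 3 genes fell in both genotypes. Ska1 read 10.6, 10.8 and 10.9 CPM in WT PRO, 1.43, 0.497 and 1.305 CPM in WT DIFF, 13.8 and 11.02 CPM in p27KO PRO and 3.57 and 2.43 CPM in p27KO DIFF. Ska3 read 30.6, 31.4 and 35.00 CPM, 3.97, 2.44 and 3.52 CPM, 32.3 and 31.9 CPM and 8.405 and 7.91 CPM in that order. Ska1 held the lowest count of any member, 12 in the second WT DIFF library. Its WT change of -3.35 ± 0.31 and its DIFF difference of 1.51 ± 0.34 (edgeR adjusted p = 0.0613, or 0.0441 with a replicate block shared by the genotypes) carry a wide error. The part of the low count in that error was not tested. For Ska3 the DIFF difference, 1.32 ± 0.17, passed the threshold (edgeR adjusted p = 0.00299). Ska2 read 71.4, 70.4 and 73.4 CPM in WT PRO, 28.8, 32.9 and 36.5 CPM in WT DIFF, 78.9 and 67.97 CPM in p27KO PRO and 45.4 and 43.9 CPM in p27KO DIFF, so that 45.6% of it was left in WT against 9.97% of Ska1 and 10.2% of Ska3.

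The passenger complex places the kinase Aurkb at the centromere, and Sgo1 guards the cohesin that holds sister centromeres together. All 4 genes of this group fell in both genotypes, and all 4 rose in p27KO against WT in DIFF, where 1.91% of genes were called higher. Birc5 (chr11:117849251-117855743), which encodes survivin, had the largest WT change of all 45 members, -3.76 ± 0.18 (edgeR adjusted p = 1.46e-07), with 59.7, 57.8 and 60.04 CPM in WT PRO, 4.73, 2.98 and 5.496 CPM in WT DIFF, 56.97 and 60.7 CPM in p27KO PRO and 14.1 and 13.00 CPM in p27KO DIFF. Cdca8 (chr4:124918465-124939311), which encodes borealin, read 78.7, 77.5 and 76.5 CPM, 8.96, 4.77 and 7.59 CPM, 69.4 and 76.5 CPM and 22.9 and 20.5 CPM in the same order. Incenp (chr19:9872296-9899551), the scaffold of the complex, had the smallest WT change of the group at -3.07 ± 0.13, with 143, 149.9 and 146 CPM in WT PRO, 20.3, 14.2 and 18.4 CPM in WT DIFF, 137 and 146 CPM in p27KO PRO and 43.8 and 35.8 CPM in p27KO DIFF. The 3 subunits lay apart between the genotypes in DIFF, where 17% of genes were higher in p27KO without overlap. The differences were 1.64 ± 0.18 for Birc5, 1.64 ± 0.19 for Cdca8 and 1.19 ± 0.14 for Incenp (edgeR adjusted p = 0.00166, 0.00190 and 0.00173).

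**Figure D2:**
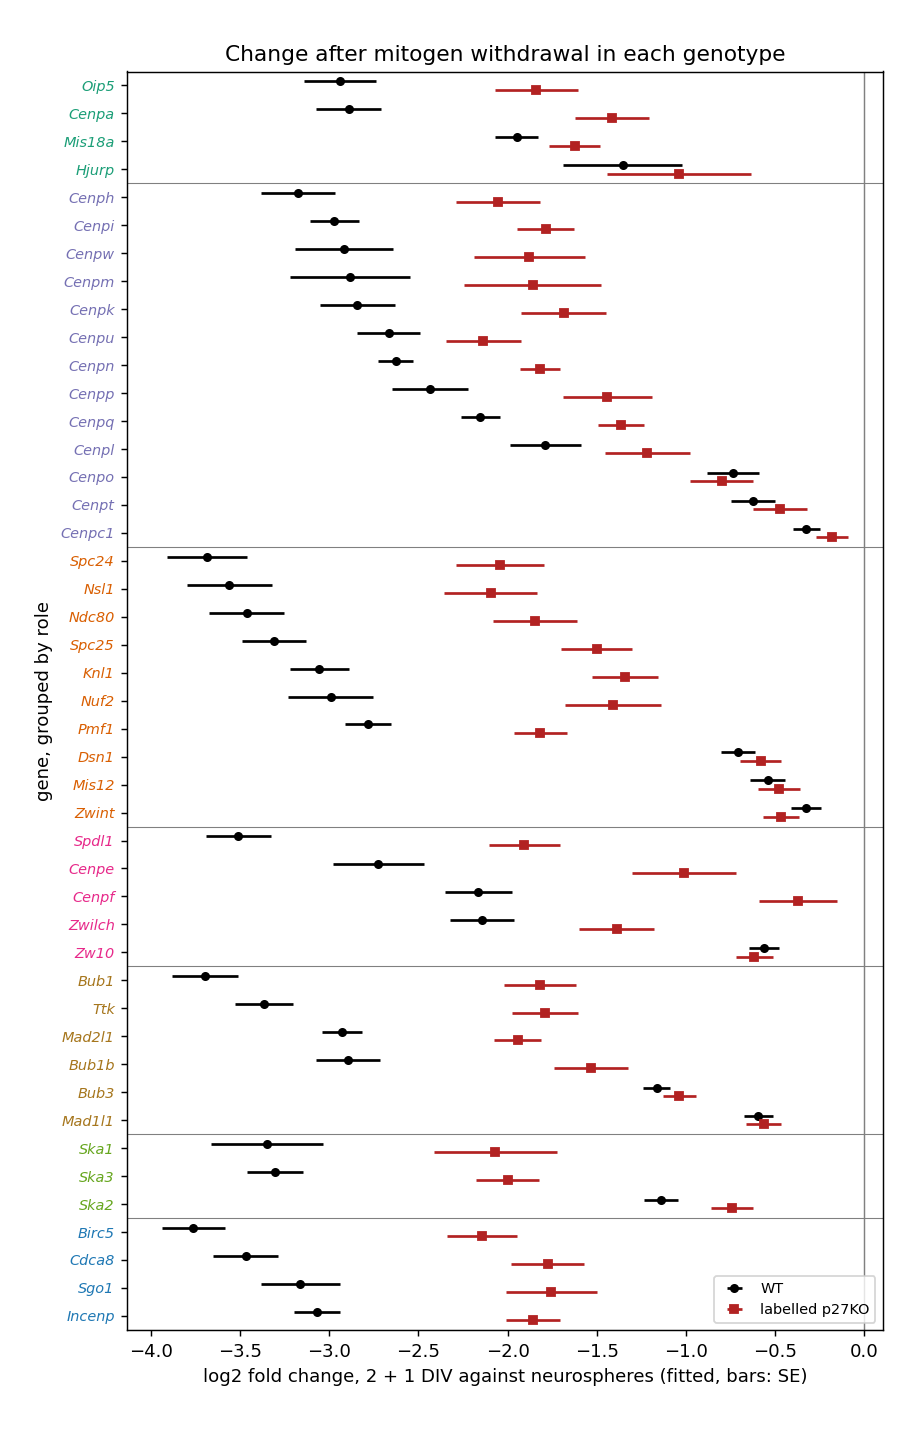
The fitted log2 fold change from PRO to DIFF is plotted for each member, grouped by role, with circles for WT, squares for the libraries labelled p27KO and bars for the SE. WT points run from -3.76 for Birc5 to -0.33 for Cenpc1, and the p27KO point lies nearer to 0 for 42 of the 45 members.

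The size of the WT change split the members into a larger group with less than 30% of the PRO level left after 24 h and a smaller group that kept more. A line at a WT log2 fold change of -1.5, drawn after the values were seen, put 34 members below it and 11 above it. Nearest to the line were Cenpl at -1.79 on the one side and Hjurp at -1.35 on the other. Of the 34, a median of 13.0% of the PRO level was left in WT DIFF (7.44% to 29.2%) and 29.2% in p27KO DIFF (23.0% to 78.6%). Of the 11, a median of 65.3% was left in WT (39.4% to 80.4%) and 67.9% in p27KO (49.4% to 89.8%). The 11 were Bub3, Cenpc1, Cenpo, Cenpt, Dsn1, Hjurp, Mad1l1, Mis12, Ska2, Zw10 and Zwint. In DIFF, where 2.04% of genes were called in either direction, edgeR called none of the 11 different between the genotypes and 25 of the 34, with 3 and 32 at an unadjusted p under 0.05, which 1901 of 12859 genes had, and DESeq2 called Cenpc1 and Ska2 of the 11. The WT DIFF libraries that set the line also enter this comparison, so that these counts are a description. Exons of 5 of the 11 (Cenpo, Cenpt, Mis12, Mad1l1 and Ska2) and of 8 of the 34 overlap exons of a gene on the other strand, and whether the counting used the strand is not given in the sources used here, so that their reads may include those of the neighbour.

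Several complexes had subunits on both sides of the line. In the Mis12 complex, which joins the CCAN to Ndc80 and Knl1, Nsl1 and Pmf1 changed by -3.56 ± 0.24 and -2.78 ± 0.13 in WT while Mis12 and Dsn1 changed by -0.54 ± 0.097 and -0.71 ± 0.095. The ratio of Nsl1 to Mis12 counts, not corrected for length, was 0.361 to 0.435 in WT PRO, 0.0328 to 0.0698 in WT DIFF, 0.406 to 0.455 in p27KO PRO and 0.131 to 0.148 in p27KO DIFF. The ratio of Zwilch to Zw10 in the RZZ complex was 1.31 to 1.397 in WT PRO, 0.316 to 0.534 in WT DIFF, 1.49 to 1.54 in p27KO PRO and 0.868 to 0.911 in p27KO DIFF. For both pairs the p27KO DIFF ratios lay between those of WT DIFF and those of PRO, without overlap. A ratio within a library shows only that the subunits changed unequally.

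The same was seen for Bub1 over Bub3, at 0.525 to 0.568 in WT PRO, 0.0724 to 0.114 in WT DIFF, 0.557 to 0.589 in p27KO PRO and 0.318 to 0.350 in p27KO DIFF. For Mad2l1 over Mad1l1 the ratio was 2.40 to 2.85 in WT PRO, 0.454 to 0.574 in WT DIFF, 2.65 to 3.11 in p27KO PRO and 1.07 to 1.15 in p27KO DIFF. Cenpw changed by -2.92 ± 0.28 in WT against -0.63 ± 0.13 for Cenpt, its partner in a histone-fold pair, and Cenpp, Cenpq and Cenpu changed by -2.43 ± 0.21, -2.15 ± 0.11 and -2.67 ± 0.18 against -0.74 ± 0.14 for Cenpo. In other complexes all subunits lay on the side of the larger change. The WT log2 fold changes spanned 0.69 over the 4 subunits of Ndc80, 0.69 over the 3 of the passenger complex, 0.84 over Cenpl and Cenpn and 0.33 over Cenph, Cenpi, Cenpk and Cenpm, against 3.02 over the Mis12 complex, 2.204 over Ska and 3.099 over the checkpoint genes. Within the Ndc80 complex the falls were still unequal. The ratio of Ndc80 to Nuf2 was 0.350 to 0.413 in WT PRO, 0.206 to 0.314 in WT DIFF, 0.297 to 0.384 in p27KO PRO and 0.239 to 0.271 in p27KO DIFF, and that of Spc24 to Spc25 was 0.297 to 0.302, 0.187 to 0.264, 0.262 to 0.277 and 0.167 to 0.206 in the same order. Both ratios were lower in DIFF than in PRO without overlap in each genotype, and their p27KO DIFF values did not lie between WT DIFF and PRO.

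**Figure D3:**
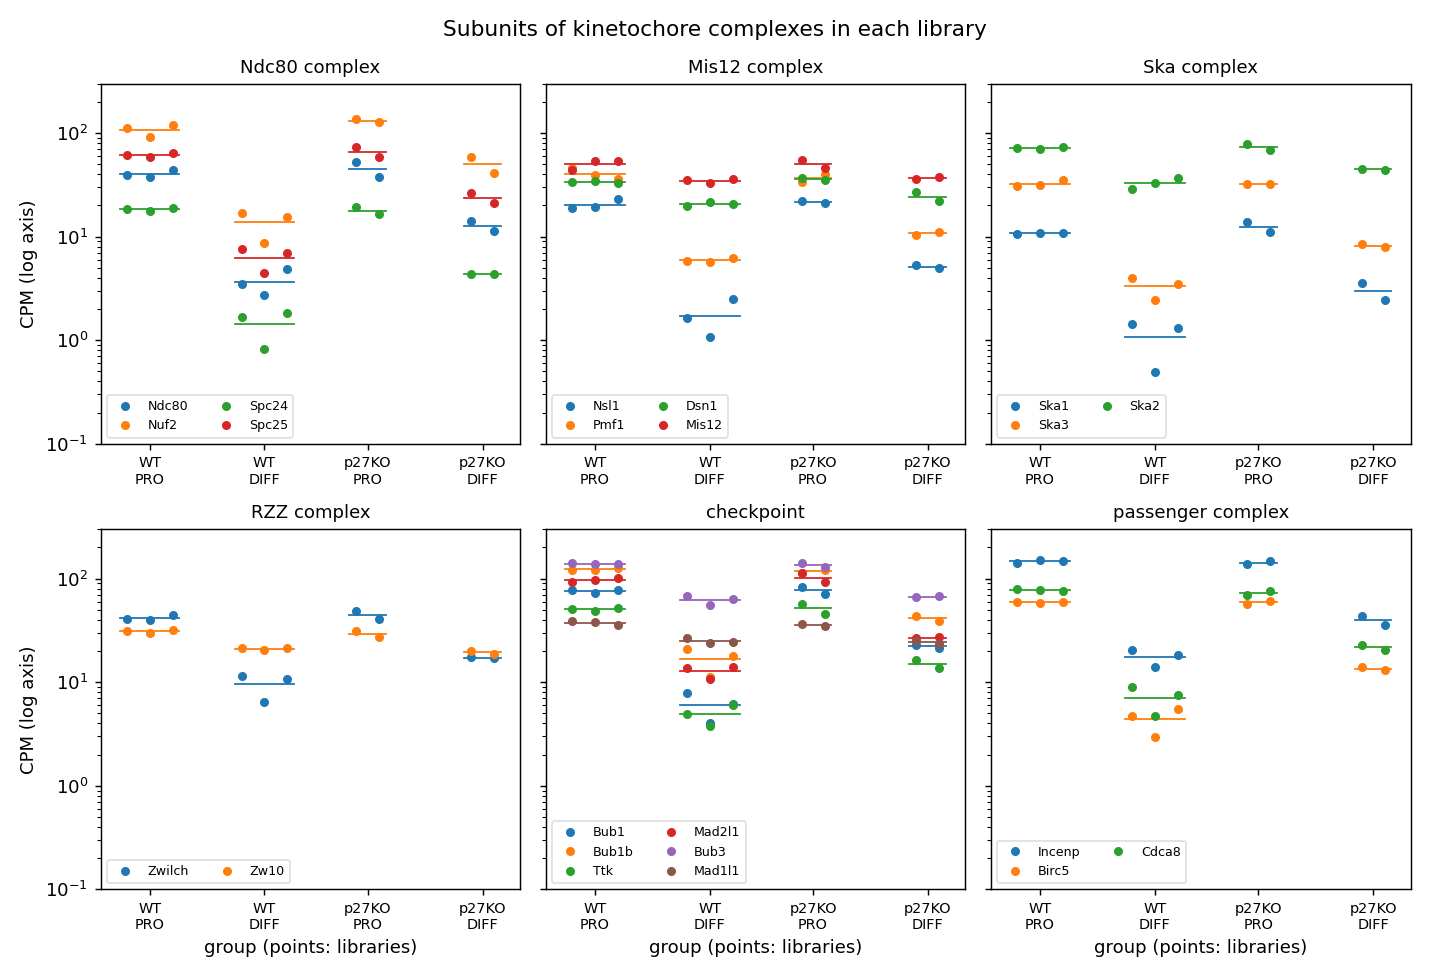
Points are the CPM of each subunit in each library on a log axis, lines are group means, and the panels show 6 complexes. All subunits of the Ndc80 and passenger complexes drop in WT DIFF, whereas Mis12 and Dsn1, Ska2, Zw10, and Bub3 and Mad1l1 drop less than their partners.

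The comparison of the stage changes asked whether members fell by a different amount in the libraries labelled p27KO. The median difference between the changes was 1.10 on the log2 scale, against -0.0086 over all genes, it was positive for 42 members, and the p27KO change was a median of 61.8% of the WT change. The difference passed the threshold for 10 of 45 members, where 0.389% of genes were called with a smaller fall or larger rise in p27KO. These 10 were Bub1 (1.88 ± 0.26), Spc25 (1.81 ± 0.26), Cenpf (1.79 ± 0.29), Knl1 (1.71 ± 0.24), Cdca8 (1.69 ± 0.27), Birc5 (1.62 ± 0.25), Spdl1 (1.60 ± 0.26), Ttk (1.58 ± 0.24), Incenp (1.21 ± 0.19) and Mad2l1 (0.98 ± 0.17), with edgeR adjusted p from 0.0230 to 0.0457. They came from the outer kinetochore, corona, checkpoint and passenger groups. None of the 4 centromeric chromatin genes, 13 CCAN genes or 3 Ska genes was among them. At an unadjusted p under 0.05, which 554 of 12859 genes had, were 2, 7 and 3 of these. Other settings called some of these, as edgeR with the size factors of DESeq2 did for Cenpi, Cenpn and Ska3 and edgeR with no filter or with the block in WT only for Cenpa, Cenpi and Ska3. DESeq2 called 23 members in all, with Cenpa, Cenpi, Cenpn, Cenpq and Ska3 from these groups. The share of genes given above is that of the main edgeR fit, and shares under other settings are not given here. A larger fall in p27KO was fitted for Cenpo, Zwint and Zw10, by at most 0.14 on the log2 scale and within their SE or near it.

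These calls rested on few libraries. The replicate number paired the WT libraries by correlation, whereas with 2 libraries per group the check could not decide for p27KO. With that number as a block within each genotype, 6 members were called, namely Spc25, Knl1, Bub1, Ttk, Cenpf and Ndc80, and with the block in WT only 18 were. The other 5 of the 10 had edgeR adjusted p of 0.0582 (Birc5), 0.065 (Spdl1), 0.0652 (Mad2l1), 0.0711 (Cdca8) and 0.0876 (Incenp) with the block within genotype. Without any one of the 3 WT PRO libraries or of the 4 p27KO libraries edgeR called none, and without WT DIFF library 1, 2 or 3 there were 14, 17 and 9. The median difference over the members stayed between 0.91 and 1.30 with any one library left out. The second WT DIFF library was the lowest of the 3 for 37 of the 45 members, with a summed level of 757 CPM against 886.8 and 913.5 CPM.

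The level in DIFF itself was compared between genotypes as well. Of 45 members 25 were higher in p27KO DIFF, where 1.91% of genes were called higher and 0.124% lower. The 3 members fitted lower, Zwint, Zw10 and Mad1l1, had edgeR adjusted p of 0.890, 0.634 and 0.944. The median difference was 1.19 on the log2 scale against -0.015 over all genes, and the values were apart without overlap for 38 members (84.4%), where 17% of genes were higher in p27KO without overlap. The other 7 were Hjurp, Cenpo, Cenpt, Zwint, Zw10, Bub3 and Mad1l1. By role, 1 of 4 centromeric chromatin genes, 5 of 13 CCAN genes, 7 of 10 outer kinetochore genes, 3 of 5 corona genes, 4 of 6 checkpoint genes, 1 of 3 Ska genes and all 4 of the passenger and shugoshin group rose. Members called at smaller size included Pmf1 (0.88 ± 0.14), Cenpq (0.91 ± 0.12) and Cenpn (0.94 ± 0.10), and Nsl1 and Sgo1 rose by 1.57 ± 0.26 and 1.40 ± 0.24. When only the 5 DIFF libraries were fitted, 3 members (Spc25, Knl1 and Cenpf) passed, without the first p27KO DIFF library 16 did, without the second WT DIFF library 27 did, and DESeq2 called 34. Shares of genes called under these other settings are not given here. The summed proliferation list in the DIFF libraries read 169 to 267 CPM in WT and 636 to 719 CPM in p27KO. For Mki67 and Top2a the p27KO DIFF mean was 3.46 and 3.53 times the WT DIFF mean, and for Pcna and Mcm2 1.51 and 1.73 times. The part of this list in the differences between the genotypes was not tested.

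In neurospheres no member was called different between the genotypes by edgeR or DESeq2, where 0.0156% of genes were called higher in p27KO by edgeR. No member had an unadjusted p under 0.05, which 603 of 12859 genes had. The fitted differences ranged from -0.23 for Hjurp to 0.37 for Cenpf, with a median of 0.062. Levels lay above WT without overlap for 6 members (13.3%, against 6.94% of genes), namely Cenpl, Cenpn, Nuf2, Dsn1, Cenpf and Ska1, and below it for Cdca8 (2.22%, against 10.9% of genes). The SE of these differences reached 0.37, so that a change of that size in the least even genes was not detectable with 3 against 2 libraries.

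**Figure D4:**
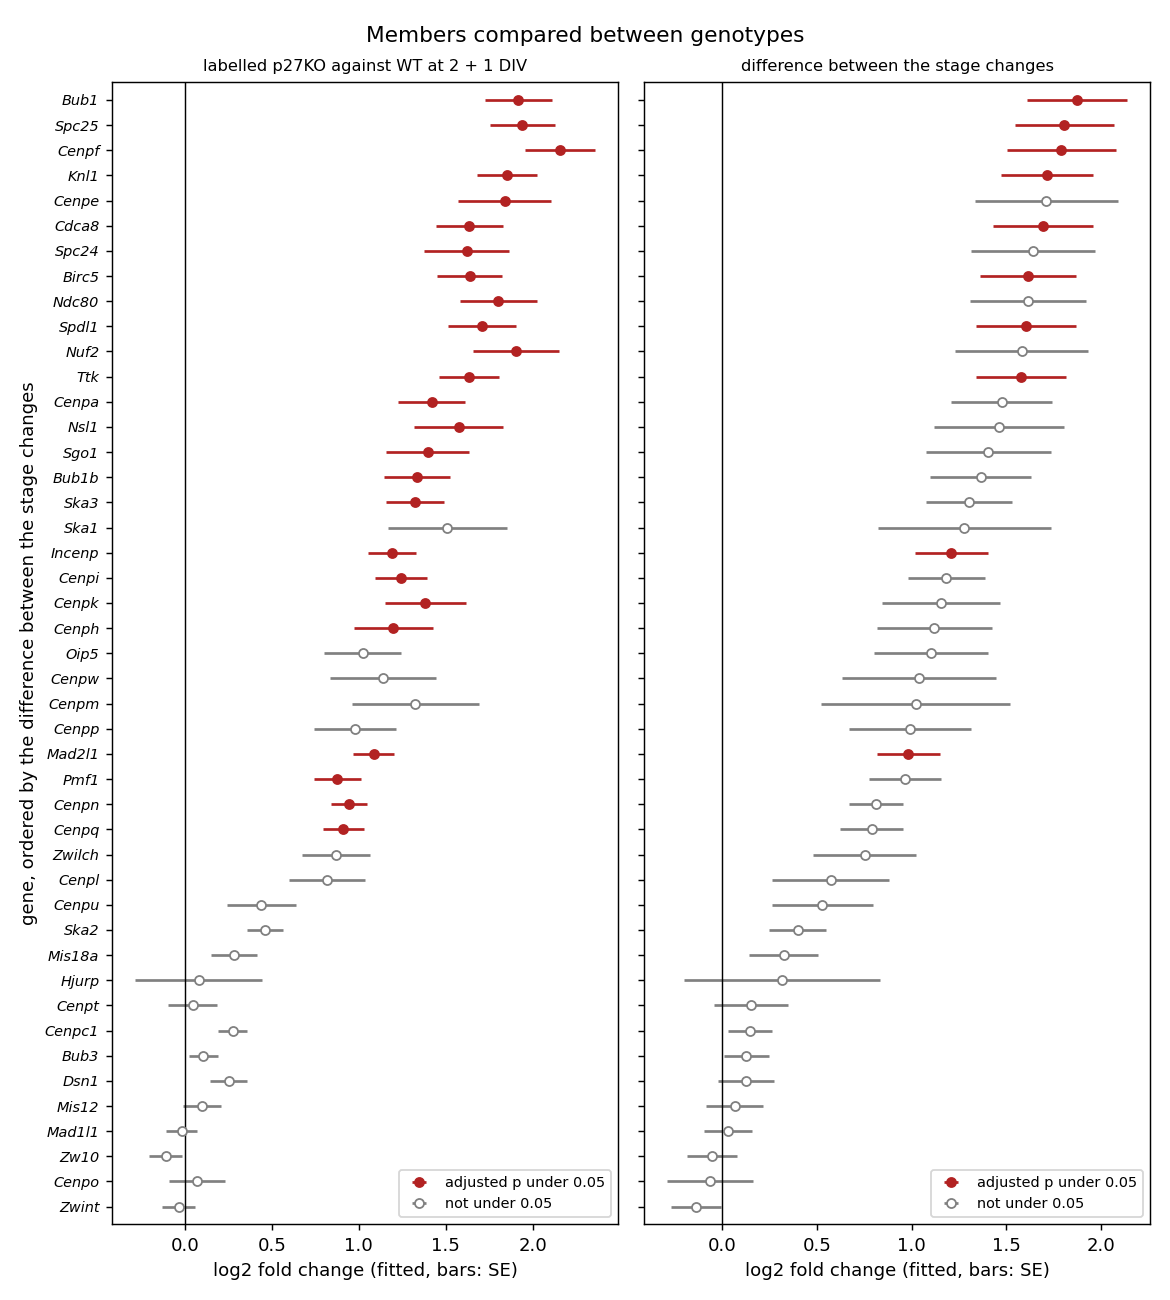
The left panel plots the fitted log2 fold change of p27KO against WT in DIFF and the right panel the difference between the stage changes, with members ordered by the latter, filled points for edgeR adjusted p under 0.05 and bars for the SE. Bub1, Spc25, Cenpf and Knl1 lie at the top, far from 0 in both panels, and Cenpo, Zwint and Zw10 lie at the bottom, near 0 in both.

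Around the 45 members, 22 further genes of the kinetochore and spindle were read in the same way. In WT 17 of the 22 fell, where 33.9% of genes were called lower and 33.5% higher, 2 rose (Clasp2 and Ckap5, which stabilise microtubules outside mitosis too) and 3 did not pass. In p27KO 16 fell, where 30.2% of genes were called lower and 27.5% higher, 2 rose and 4 did not pass. In DIFF 10 were higher in p27KO, against 1.91% of genes, and in neurospheres none differed by edgeR, with 1 at an unadjusted p under 0.05. The genes whose stage changes differed included Aurkb and Kntc1. Aurkb, the kinase of the passenger complex, read 54.8, 53.1 and 52.98 CPM in WT PRO, 3.92, 2.03 and 3.68 CPM in WT DIFF, 55.4 and 55.9 CPM in p27KO PRO and 11.1 and 9.89 CPM in p27KO DIFF. Kntc1, the Rod subunit of the RZZ complex, read 62.6, 65.4 and 70.04 CPM, 5.45, 3.15 and 5.06 CPM, 74.7 and 66.2 CPM and 14.1 and 13.1 CPM in that order.

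Both lay apart between the genotypes in DIFF, and the differences between their stage changes were 1.65 ± 0.27 for Aurkb and 1.48 ± 0.24 for Kntc1 (edgeR adjusted p = 0.0399 and 0.0385). With the block within genotype the edgeR adjusted p was 0.0723 for Aurkb and 0.065 for Kntc1. Both calls were lost whichever WT PRO or p27KO library was left out, and without the third WT DIFF library. With any one library left out the difference stayed between 1.42 and 1.82 for Aurkb and between 1.28 and 1.63 for Kntc1. Cdc20, the activator of the anaphase-promoting complex that the checkpoint holds back, read 118, 103 and 101 CPM in WT PRO, 13.3, 6.300 and 9.29 CPM in WT DIFF, 103 and 112 CPM in p27KO PRO and 31.7 and 27.8 CPM in p27KO DIFF. Its stage changes were -3.50 ± 0.22 in WT and -1.88 ± 0.25 in p27KO, and it rose in p27KO against WT in DIFF by 1.65 ± 0.23 (edgeR adjusted p = 0.00542), whereas the difference between the changes did not pass (edgeR adjusted p = 0.0875).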

How the data were processed

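The authors sequenced RNA from 10 cultures, aligned the reads to the mouse transcriptome (Ensembl) with STAR, and deposited the expected counts estimated per gene by RSEM, as whole numbers and without normalization. The submitters' notes also name GRCm38/mm10, FastQC, Trimmomatic, cutadapt and DESeq2. Versions and the strand setting are not given in the sources used here. Counts were fitted with edgeR 4.0.16 (limma 3.58.1, R 4.3.3) as robust quasi-likelihood models over 4 groups, scaled by TMM. The filter removed any gene that 4 or more of the 10 libraries held at less than 1 CPM and left 12859 of 48795. Tests were two-sided, with Benjamini-Hochberg adjustment over all genes tested and a threshold of 0.05. Log2 fold changes are given ± SE. CPM values are scaled to the library total without TMM. At 19190068 to 25291674 counts per library, the spread between 2 or 3 replicates limits most values. What the replicate numbers mark is not given in the sources used here, and p-values measure the spread between these libraries.

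Pairing by replicate number was checked over genes, as the correlation between PRO and DIFF libraries of what each deviates from its group mean. Pearson's r was 0.259, 0.340 and 0.428 for WT pairs sharing a number and -0.223 to -0.106 for the rest. Deviations within a group sum to 0, which forces part of the negative values. The WT numbers were read as pairs, but the main fit used no pairing, and replicate blocks entered only as alternatives. In p27KO Pearson's r was -0.196 for shared numbers and 0.196 for the rest. Deviations of 2 libraries mirror each other, so that these are 1 value with its sign turned. The check therefore cannot decide whether the p27KO numbers mark pairs. Replicates were distinct libraries, with a chi-square of 14.8 to 64.5 per gene between any 2 of a group.

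Library values are printed for up to 20 members past the threshold in the difference between stage changes or in p27KO against WT in DIFF, by smallest adjusted p, for the members of largest and smallest WT change in each role, and for any that did not pass in WT or were discarded. The members and lists were chosen with earlier results of these data known. The values of 1 gene from the list of further kinetochore and spindle genes are not reported here. Positions are from GENCODE M21 (GRCm38). Steps were tested on simulated counts. Alternatives were DESeq2 1.42.0, its size factors, other filters, a minimum fold, fewer groups, replicate blocks and each library left out. Tables and plots used Python 3.11.15, pandas 2.3.3 and matplotlib 3.10.9.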

Additional observations from a re-analysis of the deposited data

Results flagged for a closer look

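The stage change differed between the genotypes by the test of the difference itself (edgeR, adjusted p under 0.05) for 10 members, where 0.389% of the genes tested were called in that direction. The differences, p27KO change minus WT change on the log2 scale, were 1.88 for Bub1, 1.81 for Spc25, 1.79 for Cenpf, 1.71 for Knl1, 1.69 for Cdca8, 1.62 for Birc5, 1.60 for Spdl1, 1.58 for Ttk, 1.21 for Incenp and 0.98 for Mad2l1. With the replicate block within genotype 5 of the 10 (Birc5, Spdl1, Mad2l1, Cdca8 and Incenp) were not called. None of the 10 was called when any single WT PRO library was left out, and Cenpf was not called with no filter. The summed proliferation list read 636 to 719 CPM in p27KO DIFF against 169 to 267 CPM in WT DIFF, and its part was not tested. Among its genes only Mki67 passed the same test (edgeR adjusted p = 0.0392). Top2a, Pcna and Mcm2 did not (edgeR adjusted p = 0.0847, 0.9997 and 0.256). The genotype coincided with sex in these libraries, so that their parts cannot be told apart.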

How the results depend on the processing

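The fall in WT held for all 45 members under every alternative but the minimum fold, where it held for 37, and the p27KO fall for 41 to 44, or 34 with the minimum fold. In neurospheres no member was called under any alternative. The count of members whose stage change differed between the genotypes, 10, was 23 with DESeq2, 6 with the replicate block within genotype, 18 with the replicate block in WT only, which was chosen after seeing the data, and 0 to 17 with one library left out. It was 11 with a replicate block shared by the genotypes and 12 with the p27KO numbers crossed, also chosen after seeing the data. The count of members higher in p27KO DIFF, 25, was 3 when only the 2 groups were fitted and 16 to 28 with one library left out, and DESeq2 called 34. The cause of these shifts was not tested, beyond the smaller number of libraries in the fit of 2 groups and in those with a library left out. Shares of all genes called are given only for the main fit, so that these counts have none beside them. No called member changed sign. Among uncalled members, Mad1l1 in DIFF became 0.00072 with DESeq2 and 0.00065 with no filter, and with one library left out it ranged from -0.074 to 0.036. In DIFF, Cenpo ranged from -0.041 to 0.18, Cenpt from -0.00099 to 0.13, Zwint from -0.084 to 0.012 and Hjurp from -0.67 to 0.57. For the difference between stage changes, Cenpo ranged from -0.18 to 0.043, Cenpt from -0.0055 to 0.33, Zw10 from -0.13 to 0.026, Hjurp from -0.43 to 0.93, Mis12 from -0.030 to 0.17, Dsn1 from -0.026 to 0.26 and Mad1l1 from -0.026 to 0.083. Where a library left out leaves 1 in its group, that library is assumed to vary like the others. Depth limits the lowest members, such as Ska1 with 12 counts in a WT DIFF library.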

Other observations

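Divided by the median length of their coding transcripts, the members spanned a wide range of levels in WT neurospheres, with a median of 15.7 CPM per kb. Hjurp at 148, Zwint at 132, Cenpa at 87.1 and Bub3 at 62.9 CPM per kb were the highest, and Cenpw at 3.39 and Ska1 at 4.12 CPM per kb the lowest. In WT DIFF, Zwint (106 CPM per kb), Hjurp (58.3) and Bub3 (28.3) led, and the median was 3.48 CPM per kb. In p27KO DIFF the median was 6.32 CPM per kb. These levels carry the uncertainty of the transcript length that each gene uses, which the deposited counts do not give.

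Motifs were also counted in the 29 members with a RefSeq promoter window and a WT log2 fold change below -1.5. Among them TTTGAA was present in 15, TTTAAA in 6, CCAAT in 21, TTCCCGC in 6 and TTTGGCG in 1. Of the 11 members above that line, these were present in 3, 3, 6, 4 and 0. Either CHR-type element was present in 17 of the 29 and in 6 of the 11. No test was made of these shares.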
